A study of Mus musculus with 8 samples.

Results

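CaM kinase II is a calcium-activated protein kinase encoded by 4 genes, and it was examined here together with its inhibitors, the small PCP4 proteins and a calmodulin gene in hearts of fetal mice with and without type 3 deiodinase (DIO3), the enzyme that inactivates thyroid hormones. The members are 9 genes of the 26590 gene symbols in the deposited table: *Camk2a*, *Camk2b*, *Camk2d* and *Camk2g* (the kinase subunits), *Camk2n1* and *Camk2n2* (inhibitors), *Pcp4* and *Pcp4l1* (small proteins with an IQ motif) and *Calm2* (calmodulin). They were taken by symbol, and they have 30 of the 51414 transcript rows. For each gene the row with the highest average of the *Dio3+/+* and *Dio3-/-* means was used, so the rows were chosen by those averages. The genes themselves were selected on earlier results of these hearts, their genotype means and fold changes included. The differences of the members between genotypes are therefore a description, and the *P* values printed beside them, which come from the fit over the whole table, are no independent evidence.

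The libraries came from the hearts of 4 *Dio3+/+* and 4 *Dio3-/-* fetuses of strain C57BL/6J, each RNA from a single mouse. The titles give E13.5 for all 8 hearts, but the age field gives E18.5 for 2 of the 4 *Dio3-/-* hearts (replicates 3 and 4), and the study's methods give a day later than the titles. The table used here has no values of single hearts, and reads were not analysed here, so no result is given without those 2 hearts. In this table genotype and any difference in age between hearts cannot be told apart. The series' design text calls the hearts male. DIO3 was missing from the whole fetus, not from the heart alone, and the values come from whole hearts with all their cell types. Fewer cells of a type and less RNA per cell cannot be told apart in such data. The processed table used here gives a mean and a CV (coefficient of variation, SD over mean) per genotype. It does not name the unit of the mean. RPKM (read counts divided by transcript length and by the number of mapped reads) was taken from the filter in the study's methods. Values of single hearts and read totals are not in the table used here, so no value per heart is shown. The depth is described in the study's methods, but the table gives none for a single heart. Genotypes were compared from these summaries with limma's moderated test on the log2(RPKM + 0.5) scale, and *P* values were adjusted over the 32703 rows in which either genotype exceeded 1 RPKM. Log2 fold changes are on that scale, are positive where *Dio3-/-* is higher, and understate the change of low genes. *Dio3* itself was near the floor in both genotypes, with 0.35 RPKM (CV 1.23) in *Dio3+/+* and 0.13 RPKM (CV 0.76) in *Dio3-/-* hearts, and could not check the labels.

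Calmodulin is the calcium sensor of the cell. When it has bound calcium, it releases the kinase domain of CaM kinase II from its own inhibitory segment, and in heart muscle the active enzyme phosphorylates proteins of calcium handling, such as the ryanodine receptor and phospholamban. The CAMK2D subunit is the main form in the mature heart, and CAMK2A and CAMK2B are best known from the brain. CAMK2N1 and CAMK2N2 bind the active kinase and block it, and PCP4 (also PEP-19) changes how fast calmodulin binds and releases calcium.

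Promoter sequences of the *Pcp4* pair and of *Camk2b* are shown because *Pcp4l1* and *Camk2b* are the members whose transcripts passed the test, with *Pcp4* as the paralog of *Pcp4l1*. RefSeq's GRCm38.p6 table gave a promoter window, from 250 bases before to 50 bases after the start of the gene, for 5 of the 9 members (*Camk2b*, *Camk2d*, *Camk2n2*, *Pcp4* and *Pcp4l1*). The genome build of the deposited table is not given in the sources used here, and the windows were not used with it. Capitals mark AGGTCA, the half-site that thyroid hormone receptors recognise, TATAAA (the TATA box) and GGGCGG (the GC box), each searched on both strands with overlapping matches counted. The sequences are printed 5′ to 3′ on the strand of the gene.
Pcp4l1, chr1:171196219-171196518, minus strand: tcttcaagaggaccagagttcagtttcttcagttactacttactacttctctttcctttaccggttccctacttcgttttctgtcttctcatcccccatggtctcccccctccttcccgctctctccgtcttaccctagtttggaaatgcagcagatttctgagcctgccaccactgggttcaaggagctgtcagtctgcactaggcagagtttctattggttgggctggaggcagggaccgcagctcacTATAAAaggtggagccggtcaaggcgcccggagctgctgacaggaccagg
Pcp4, chr16:96467356-96467655, plus strand: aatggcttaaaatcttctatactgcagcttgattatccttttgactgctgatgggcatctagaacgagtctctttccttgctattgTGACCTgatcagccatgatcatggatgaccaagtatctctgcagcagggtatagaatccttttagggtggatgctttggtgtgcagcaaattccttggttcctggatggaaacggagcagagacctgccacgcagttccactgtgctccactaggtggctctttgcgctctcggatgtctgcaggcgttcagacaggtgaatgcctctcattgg
Camk2b, chr11:6065699-6065998, minus strand: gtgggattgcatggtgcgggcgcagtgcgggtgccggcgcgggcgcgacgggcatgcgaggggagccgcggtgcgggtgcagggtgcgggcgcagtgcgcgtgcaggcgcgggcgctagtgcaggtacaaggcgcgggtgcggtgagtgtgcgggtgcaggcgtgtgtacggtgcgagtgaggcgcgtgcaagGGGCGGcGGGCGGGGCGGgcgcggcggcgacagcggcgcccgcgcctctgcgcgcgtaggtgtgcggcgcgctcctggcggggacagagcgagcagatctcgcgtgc
The *Pcp4l1* window held 1 match to the TATA box, which begins at base 251 of the 300, and neither of the other motifs. By the bounds of the window, this match lies at the annotated start of the gene and not before it. The *Pcp4* window held 1 half-site, read on the opposite strand, and it begins at base 87. The *Camk2b* window held 3 GC boxes, 2 of them overlapping, and no half-site. Among all 32851 windows of the same length, 16.3% held a half-site, 13.6% a TATA box and 35.7% a GC box. The direct repeat of the thyroid hormone receptor, AGGTCA and AGGTCA with 4 bases of any kind between them, was found in none of the 5 members' windows and in 0.0152% of all windows. GC content was 53.3% in the *Pcp4l1* window, 48.7% in the *Pcp4* window and 77.3% in the *Camk2b* window, against a median of 52.7% over all windows. It was 70.3% in the *Camk2d* window and 79.0% in the *Camk2n2* window, which held 3 and 6 GC boxes. These matches describe the letters of the windows only.

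The members covered a wide range of levels, which can be set side by side if the values are RPKM, since RPKM is per length. In *Dio3+/+* hearts *Calm2* was the highest (112.00 RPKM, CV 0.11), followed by *Camk2d* (59.55 RPKM, CV 0.12) and *Camk2a* (25.30 RPKM, CV 0.11). *Camk2g* (18.72 RPKM, CV 0.03) and *Pcp4l1* (18.69 RPKM, CV 0.17) came next and did not differ beyond their spread. The low members were *Camk2n1* (2.21 RPKM, CV 0.12), *Camk2n2* (1.54 RPKM, CV 0.46), *Camk2b* (0.78 RPKM, CV 0.08) and *Pcp4* (0.43 RPKM, CV 0.43). Among these, the ranges of 1 SD around the means overlapped between *Camk2n1* and *Camk2n2* and between *Camk2n2* and *Camk2b*. In *Dio3-/-* hearts the order differed in that *Pcp4l1* (40.27 RPKM) stood above *Camk2a* (26.26 RPKM) and *Camk2b* (1.48 RPKM) above *Camk2n2* (1.24 RPKM), the latter pair within 1 SD of each other. Among the *Dio3+/+* means of all gene symbols, *Calm2* stood above 97.9% and *Pcp4* above 38.8%.

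**Figure D1:**
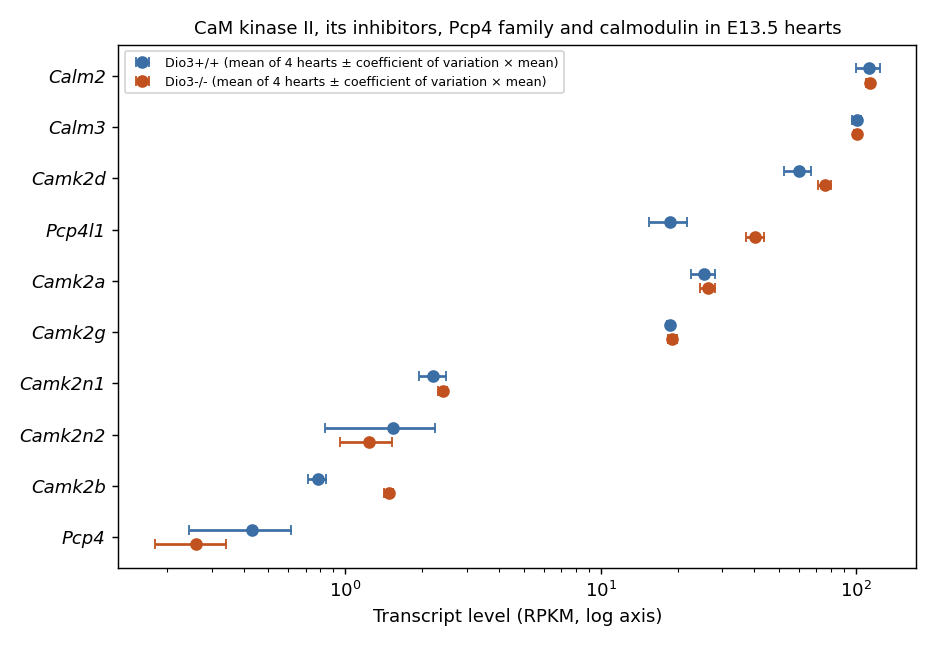
Mean transcript level (RPKM, log axis) of the 9 members and of *Calm3* in *Dio3+/+* (blue) and *Dio3-/-* (orange) hearts; bars are the CV times the mean over 4 hearts. The bars of the genotypes are apart for *Pcp4l1*, *Camk2b* and *Camk2d*.

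Of the 9 members, 8 exceeded 1 RPKM in 1 or both genotypes and were tested, and *Pcp4* was not. *Pcp4l1* and *Camk2b* had adjusted *P* values under 0.05 and were higher in *Dio3-/-* hearts. No member was lower with an adjusted *P* value under 0.05. Over all 14657 gene symbols tested in the same way, 2.29% passed, with 1.91% higher and 0.382% lower in *Dio3-/-* hearts. The median log2 fold change of the 8 tested members was 0.08, against 0.04 over all tested symbols. The ranges of 1 SD around the means did not overlap for 3 members (*Pcp4l1*, *Camk2b* and *Camk2d*), and over all tested symbols this held for 15.5%.

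*Pcp4l1* rose, with the largest fold change of the members. Its mean went from 18.69 RPKM (CV 0.17) in *Dio3+/+* to 40.27 RPKM (CV 0.08) in *Dio3-/-* hearts, a ratio of 2.15. The ranges of 1 SD were far apart, from 15.5 to 21.9 RPKM and from 37.0 to 43.5 RPKM. The log2 fold change was 1.09 (standard error 0.11, 95% interval 0.84 to 1.34), with an adjusted *P* value of 0.0021 by limma. Only 35 of the 14657 tested symbols had a higher log2 fold change. Its second transcript row gave nearly the same values, with 18.34 RPKM (*Dio3+/+*) and 39.52 RPKM (*Dio3-/-*), and shares reads with the first. The adjusted *P* value ranged from 0.0011 to 0.0486 over 10 other ways of testing, of which Welch's test calculated from the summaries gave the highest.

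*Pcp4*, the paralog of *Pcp4l1* and a marker of cerebellar Purkinje cells, was near the floor. Its single row had 0.43 RPKM (CV 0.43) in *Dio3+/+* and 0.26 RPKM (CV 0.31) in *Dio3-/-* hearts, and the ranges of 1 SD overlapped. With all rows above 0 tested, its log2 fold change was −0.29 (standard error 0.14, 95% interval −0.61 to 0.03; limma's adjusted *P* = 0.394). *Pcp4l1* was thus 43.5 times the level of *Pcp4* in *Dio3+/+* and 155 times in *Dio3-/-* hearts, by the genotype means.

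*Camk2b*, the lowest of the kinase subunits, rose from 0.78 RPKM (CV 0.08) in *Dio3+/+* to 1.48 RPKM (CV 0.04) in *Dio3-/-* hearts, a ratio of 1.90. The ranges of 1 SD were 0.72 to 0.84 RPKM and 1.42 to 1.54 RPKM. The log2 fold change was 0.63 (standard error 0.09, 95% interval 0.43 to 0.83; limma's adjusted *P* = 0.0088), and 98 tested symbols had a higher one. *Camk2b* passed the filter only through the *Dio3-/-* mean, but with all rows above 0 tested its adjusted *P* value was 0.0086. Because the pseudocount is of the size of the level itself, the log2 fold change depended on it, with 0.84 at a pseudocount of 0.1 and 0.48 at 1. It passed in all 9 alternatives that tested it, with adjusted *P* values from 0.0010 to 0.0220 by limma or Welch's test. All of these except the one with no filter let it in only through the *Dio3-/-* mean. Of its 6 transcript rows, 4 were tested and all 4 passed, with ratios from 1.86 to 1.90. These 4 rows exceeded 1 RPKM in *Dio3-/-* hearts alone (0.68 to 0.78 RPKM in *Dio3+/+* hearts), so they too entered the test through the higher genotype. Rows of a gene share exons and reads, so they are not separate measurements. Of all 32703 tested rows 2.15% passed, 1.88% as higher in *Dio3-/-* hearts. The other 2 rows were low and uneven between hearts, with 0.14 and 0.43 RPKM (CVs 1.15 and 0.62) in one and 0.03 and 0.04 RPKM (1.09 and 0.30) in the other.

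*Camk2d*, the subunit with the most RNA here, had 59.55 RPKM (CV 0.12) in *Dio3+/+* and 75.31 RPKM (CV 0.06) in *Dio3-/-* hearts, a ratio of 1.26. Its ranges of 1 SD were next to each other without overlap, 52.4 to 66.7 RPKM and 70.8 to 79.8 RPKM. The log2 fold change was 0.34 (standard error 0.08, 95% interval 0.15 to 0.52). The unadjusted *P* value was 0.0028 (19.7% of all tested symbols had one under 0.05). The adjusted *P* value was 0.070 by limma, so *Camk2d* did not pass in the row used. Its 12 rows all had ratios between 1.23 and 1.34. Of these rows, uc008rgg.1 (19.17 and 24.41 RPKM) and uc008rgh.1 (42.38 and 53.78 RPKM) had an adjusted *P* value of 0.0483 in the limma fit and the other 10 were from 0.057 to 0.070. In the row used, the adjusted *P* value was from 0.056 to 0.198 over 10 alternatives.

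*Camk2a* and *Camk2g* had no detectable difference. *Camk2a* had 25.30 RPKM (CV 0.11) in *Dio3+/+* and 26.26 RPKM (CV 0.07) in *Dio3-/-* hearts, with overlapping ranges. The log2 fold change was 0.05 (95% interval −0.13 to 0.24; limma's adjusted *P* = 0.782), and its other row gave 0.04. The *Camk2a* gene also encodes a muscle anchoring protein that lacks the kinase domain, alpha-KAP, and which product the rows cover was not determined. *Camk2g* had 18.72 RPKM (CV 0.03) and 19.11 RPKM (CV 0.04), a log2 fold change of 0.03 (95% interval −0.08 to 0.13; limma's adjusted *P* = 0.793), and its sign turned to −0.01 after the log2 ratios of all tested rows were centred on their median. The intervals leave room for changes of the size of *Camk2d*'s lower bound in *Camk2a*, but not in *Camk2g*. Whether the change of *Camk2b* or *Camk2d* differs from that of *Camk2a* or *Camk2g* was not tested, since the genes come from the same hearts and the table gives no values per heart.

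A row named *Camk2g* stood apart from the other 3 rows of that name. The row uc008rgf.1 had 10.26 RPKM (CV 0.10) in *Dio3+/+* and 12.82 RPKM (CV 0.02) in *Dio3-/-* hearts. Its log2 fold change of 0.31 (standard error 0.07, limma's adjusted *P* = 0.055) was within the range of the 12 *Camk2d* rows (0.29 to 0.41), whereas the other *Camk2g* rows (uc007skt.1, uc007sku.1 and uc007skv.1) had log2 fold changes of 0.03. Its spread was also that of the *Camk2d* rows, where 11 of the 12 had a CV of 0.10 to 0.12 in *Dio3+/+* hearts, and not that of the other *Camk2g* rows (0.03 in all 3). Its identifier comes directly before the first *Camk2d* identifier in the table (uc008rgg.1). Which locus the row covers was not determined, and it does not enter the *Camk2g* values above.

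**Figure D2:**
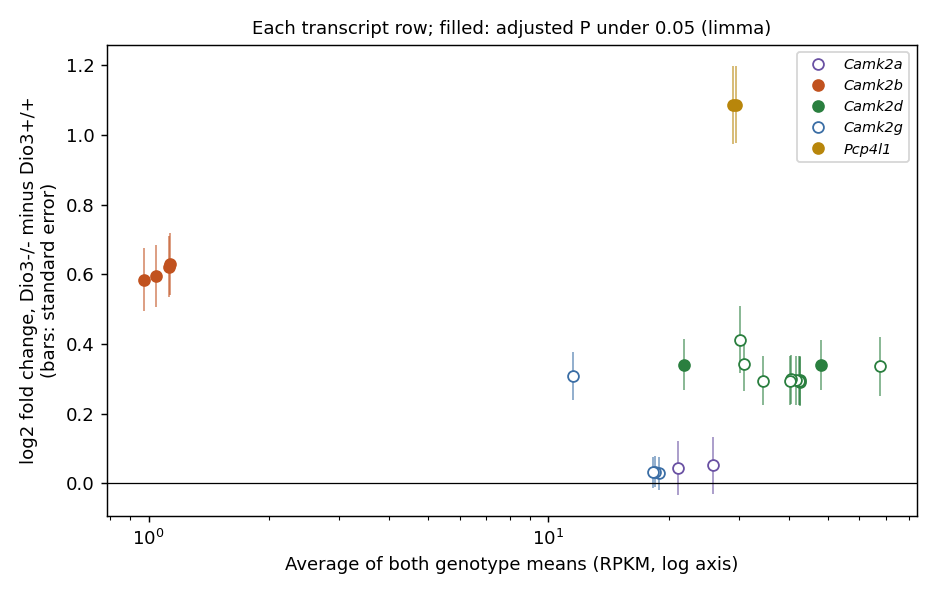
Log2 fold change with its standard error (vertical axis) against the average level (RPKM, log axis) for each tested transcript row of *Camk2a*, *Camk2b*, *Camk2d*, *Camk2g* and *Pcp4l1*; filled points passed an adjusted *P* value of 0.05. The open blue point at 11.5 RPKM is the row uc008rgf.1, named *Camk2g* but level with the green *Camk2d* rows.

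By the rows used, the 4 kinase genes summed to 104 RPKM (*Dio3+/+*) and 122 RPKM (*Dio3-/-*). Whether this sum counts alpha-KAP RNA through the *Camk2a* row was not determined. *Camk2d* made up 57.1% of the sum in *Dio3+/+* and 61.6% in *Dio3-/-* hearts, *Camk2a* 24.2% and 21.5%, *Camk2g* 17.9% and 15.6%, and *Camk2b* 0.75% and 1.21%. The SD of the *Camk2d* share, taken from the CVs as if the genes varied independently, was 3.3 and 1.7 percentage points. These shares were not tested, and they depend on the rows: with all rows of a gene summed, which counts shared exons again, *Camk2d* made up 78.9% and 81.4%. In that sum the row uc008rgf.1 was counted as *Camk2g*.

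The inhibitors were far below the kinase. *Camk2n1* had 2.21 RPKM (CV 0.12) in *Dio3+/+* and 2.41 RPKM (CV 0.04) in *Dio3-/-* hearts, which is a log2 fold change of 0.10 (95% interval −0.09 to 0.30; limma's adjusted *P* = 0.577). *Camk2n2* had 1.54 RPKM (CV 0.46) and 1.24 RPKM (CV 0.23), a log2 fold change of −0.23 whose 95% interval from −0.75 to 0.29 was the widest of the members (limma's adjusted *P* = 0.651). Both pairs of ranges overlapped. Summed over both genes, inhibitor RNA was 3.59% of the summed RNA of the 4 kinase genes in *Dio3+/+* and 2.99% in *Dio3-/-* hearts. That sum has the same limit for alpha-KAP.

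*Calm2*, which encodes the same calmodulin protein as *Calm3*, did not differ detectably. It had 112.00 RPKM (CV 0.11) in *Dio3+/+* and 112.98 RPKM (CV 0.03) in *Dio3-/-* hearts, which is a log2 fold change of 0.01 (95% interval −0.15 to 0.18; limma's adjusted *P* = 0.952). The sign turned to −0.03 after centring. *Calm3* had 100.57 and 100.42 RPKM (95% interval of the log2 fold change −0.10 to 0.10). Calmodulin genes have processed pseudogenes, and reads that mapped to more than 1 place were not counted by the authors, so the levels of these genes are uncertain.

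**Figure D3:**
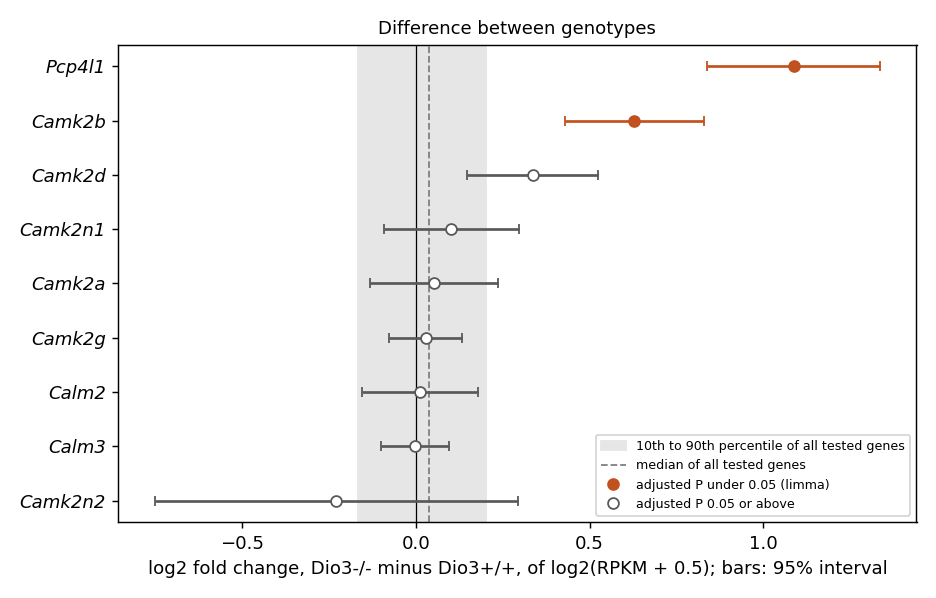
Log2 fold change with its 95% interval for the 8 tested members and for *Calm3*; filled points passed an adjusted *P* value of 0.05, the grey band spans the 10th to the 90th percentile of all tested genes (−0.17 to 0.20) and the dashed line is their median (0.04). *Pcp4l1* and *Camk2b* lie wholly to the right of the band, and the *Camk2d* interval starts inside it.

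The rest of the calmodulin pathway was read from 7 lists of 83 genes. These lists were written with earlier results of these data known, so the shares that passed, here and below, are no independent evidence. Of the 71 genes tested, 3 rose in *Dio3-/-* hearts (4.23%, against 2.29% of all tested symbols) and 68 did not pass. None passed as lower by limma in the fit reported, where 17 of the 71 had an unadjusted *P* value under 0.05 (19.7% of all tested symbols had one). *Pnck*, a kinase of another list described below, passed as lower in 2 of its 9 alternatives. The median log2 fold change was 0.07, against 0.04 over all tested symbols. *Ryr2* (the calcium release channel of the sarcoplasmic reticulum) rose among 13 tested genes for substrates or targets of CaM kinase II in the heart. *Ryr2* went from 24.20 RPKM (CV 0.15) to 36.62 RPKM (CV 0.08), a log2 fold change of 0.59 (limma's adjusted *P* = 0.023). In that list 12 of the 13 log2 fold changes were positive, as were 63.3% of those of all tested symbols. *Pln*, which encodes the sarcoplasmic reticulum protein phospholamban, had 351.55 and 372.76 RPKM (log2 fold change 0.08, limma's adjusted *P* = 0.754), and *Mybpc3*, which encodes cardiac myosin-binding protein C, had 301.71 and 378.33 RPKM (0.33, adjusted *P* = 0.155).

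Of 12 tested genes for calcineurin, the calmodulin-activated phosphatase, and its regulators, 2 rose (2.29% of all tested symbols passed) and 10 did not pass. *Myoz2* (calsarcin-1, a Z-disc protein that binds calcineurin) went from 77.91 RPKM (CV 0.13) to 116.80 RPKM (CV 0.10), a log2 fold change of 0.58 (limma's adjusted *P* = 0.022). *Rcan2* (a calcineurin inhibitor) went from 19.66 RPKM (CV 0.15) to 28.19 RPKM (CV 0.08), a log2 fold change of 0.51 (limma's adjusted *P* = 0.041). All tested rows of *Myoz2*, *Rcan2* and *Ryr2* passed, but with Welch's test in place of limma 0 of these 3 genes did. *Rcan2* also lost its call in 4 of the other alternatives, those with no filter, with no mean-variance trend, with centring and with each CV raised by 0.005. The catalytic subunits *Ppp3ca* (37.12 and 37.37 RPKM) and *Ppp3cb* (28.74 and 30.28 RPKM), the regulatory subunit *Ppp3r1* (33.33 and 34.57 RPKM) and the inhibitor *Rcan1* (55.52 and 59.12 RPKM) had log2 fold changes from 0.01 to 0.09 and did not pass.

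No gene passed in the other 5 lists. Among 14 other calmodulin-regulated kinases 5 had a positive log2 fold change and the median was −0.07. *Pnck* (CaM kinase I beta) had 2.20 and 1.5 RPKM (log2 fold change −0.43, limma's adjusted *P* = 0.051, from 0.035 to 0.156 over 9 alternatives), *Camk1* (CaM kinase I alpha) had 22.72 and 19.96 RPKM (−0.18, adjusted *P* = 0.113), and *Mylk3*, the cardiac myosin light chain kinase, had 53.50 and 59.72 RPKM (0.16, adjusted *P* = 0.424). Among 10 other genes for IQ-motif or similar calmodulin binders, *Nrgn* (neurogranin, of the same small IQ-motif kind as *Pcp4*) had 8.76 RPKM (CV 0.14) and 5.78 RPKM (CV 0.29), a log2 fold change of −0.56 (limma's adjusted *P* = 0.126). *Gap43* had 11.46 and 10.96 RPKM (−0.06, adjusted *P* = 0.684). The median was 0.01 over 10 calmodulin-regulated enzymes and pumps and 0.09 over 11 phosphatases and scaffolds of CaM kinase II. Among other calmodulin genes, *Calm3* was the only 1 of 3 listed that was tested. *Actn2*, the Z-disc alpha-actinin, had 304.29 and 360.78 RPKM (0.25, limma's adjusted *P* = 0.174).

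**Figure D4:**
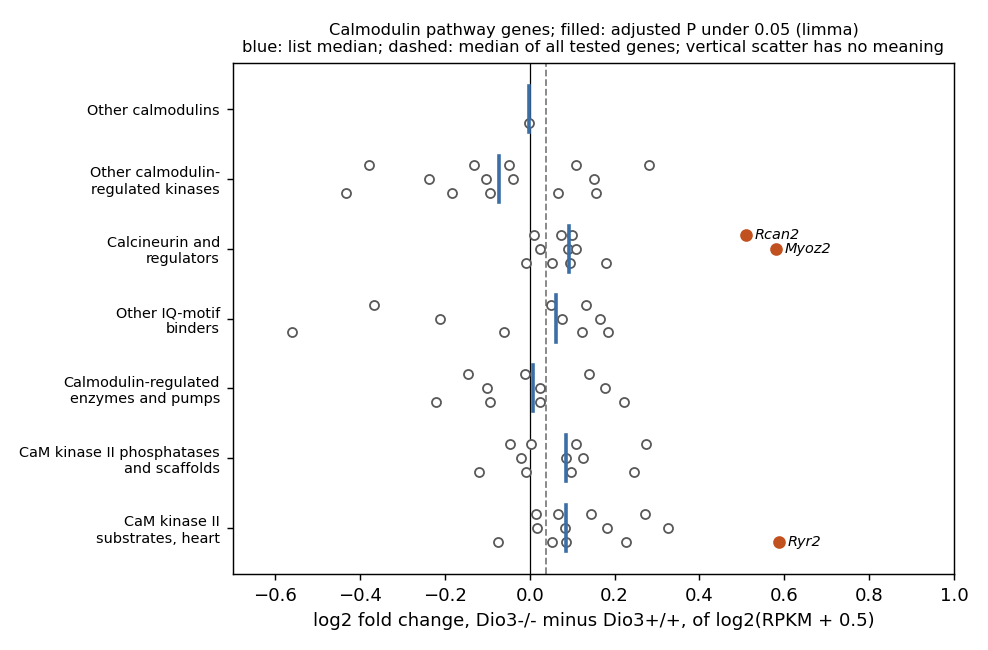
Log2 fold change of each tested gene in the 7 calmodulin pathway lists (rows); filled points passed an adjusted *P* value of 0.05, blue bars are list medians and the dashed line is the median of all tested genes. *Myoz2*, *Rcan2* and *Ryr2* are the 3 filled points.

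With only 2 genotype means, likeness to a member can be measured by the size of the log2 fold change alone. Among symbols that passed the test, the nearest to *Pcp4l1* (1.09) were *Nt5e* (1.08), *Upp1* (1.10) and *Myh6* (1.06). The nearest to *Camk2b* (0.63) were *Cend1* (0.62), *Adarb1* (0.64) and *Tmem51* (0.62).

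Markers of the heart and of other cells differed in how they moved. Over all tested symbols, 2.29% passed, 19.7% had an unadjusted *P* value under 0.05 by limma and 63.3% had a positive log2 fold change. The 8 cardiomyocyte markers summed to 11918 RPKM (*Dio3+/+*) and 13697 RPKM (*Dio3-/-*), 7 had a positive log2 fold change and none of the 8 passed by limma, where 3 had an unadjusted *P* value under 0.05. The list leaves out *Myh6*, a cardiac myosin gene named above. *Myh6* went from 459.52 RPKM (CV 0.13) in *Dio3+/+* to 959.07 RPKM (CV 0.08) in *Dio3-/-* hearts and passed (limma's adjusted *P* = 0.0013). Of 9 neuron markers, 5 were below 1 RPKM in both genotypes (*Snap25*, *Syn1*, *Prph*, *Th* and *Dbh*) and *Tubb3* passed, with 2.08 RPKM (CV 0.10) in *Dio3+/+* and 3.54 RPKM (CV 0.10) in *Dio3-/-* hearts (log2 fold change 0.65, limma's adjusted *P* = 0.0086). The sum of the neuron list was 16.7 RPKM (*Dio3+/+*) and 17.9 RPKM (*Dio3-/-*). The other 3 tested neuron markers did not pass, with 1.19 and 1.27 RPKM for *Stmn2*, 1.16 and 1.11 RPKM for *Elavl4* and 11.46 and 10.96 RPKM for *Gap43*, and the median log2 fold change of the 4 was 0.01. The part of neurons in the rise of *Camk2b* was not tested. Red cell markers summed to 29885 RPKM (*Dio3+/+*) and 10217 RPKM (*Dio3-/-*) over 5 genes. Most of the sum was *Hbb-y* (29101 and 9909 RPKM, limma's adjusted *P* = 0.075). All 5 were lower in *Dio3-/-* hearts with an unadjusted *P* value under 0.05 by limma (median log2 fold change −1.39), and of these *Hbb-bh1* passed. The part of the red cells in the changes above was not tested. Centring on the median lowers every log2 fold change by the same 0.04, so it cannot show a change in cell types. With centring, the log2 fold change was 1.05 for *Pcp4l1* and 0.59 for *Camk2b*, and both passed by limma. All 8 liver markers had a positive log2 fold change (sums of 22.9 and 123 RPKM) and none passed by limma, where all 8 had an unadjusted *P* value under 0.05. They varied widely between hearts of a genotype, with median CVs of 0.99 (*Dio3+/+*) and 1.11 (*Dio3-/-*). The part of liver RNA in the changes above was not tested. Early skeletal muscle markers were uneven among the *Dio3+/+* hearts. The CV of *Myod1* was 1.62, and it had 4.42 RPKM (*Dio3+/+*) and 0.46 RPKM (*Dio3-/-*), whereas *Ckm*, a later muscle gene of the same list, had 50.40 and 87.79 RPKM and *Actn3* had 1.65 and 2.04 RPKM. The other early markers were lower in *Dio3-/-* hearts as *Myod1* was, with CVs from 1.54 to 1.56 in *Dio3+/+* hearts. They had 9.78 and 1.17 RPKM (*Myog*), 0.74 and 0.08 RPKM (*Pax7*) and 0.51 and 0.04 RPKM (*Myf5*). The list summed to 67.5 RPKM (*Dio3+/+*) and 91.6 RPKM (*Dio3-/-*), most of it *Ckm*. None of its 4 tested genes passed by limma, where 3 had an unadjusted *P* value under 0.05. The 5 endothelial, 6 fibroblast and epicardial and 4 smooth muscle markers held no gene that passed by limma, where 2, 1 and 1 had an unadjusted *P* value under 0.05.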

How the data were processed

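RNA of whole hearts was sequenced after ribosomal RNA was removed. The authors used NovoAlign (version 2.08, per the labels) on single-end reads, counted only reads with 1 mapping position and brought all samples to the lowest read number by linear scaling. A genome build is not given in the sources used here. The deposited table holds, per transcript row, a genotype mean, taken as RPKM after the filter in the Methods, and a deposited coefficient of variation (a ratio), each with 2 decimals. The deposited fold change, *q* value and call columns were not used. The members and lists were chosen with earlier results of these data known.

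For each row, log2(mean + 0.5) was taken and its SD was derived from the coefficient of variation by the delta method. Variances pooled over the genotypes (6 residual degrees of freedom) were moderated with a mean-variance trend in limma 3.58.1 (R 4.3.3), with Benjamini-Hochberg adjustment over all rows that exceeded 1 RPKM in either genotype. The script was tested on simulated data. *P* values set the difference between genotypes against a variance between hearts, pooled over the genotypes and moderated over all tested rows. Read numbers are stated in the study's methods but are not in the table, so no precision from depth was calculated. Named genes were all members, *Dio3*, pathway genes that passed or were among the 5 highest of their list, the 3 genes nearest to a member by log2 fold change, and examples of markers. *Pnck*, *Nrgn* and *Gap43* were named after their values were seen, as were the neuron, skeletal muscle and red cell markers. A few genes of the lists are not reported here and are left out of the list counts. Python 3.11.15 was used for summaries.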

Additional observations from a re-analysis of the deposited data

How the results depend on the processing

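The calls of *Pcp4l1* and *Camk2b* and the lack of a call for *Camk2a*, *Camk2d*, *Camk2g*, *Camk2n1*, *Camk2n2* and *Calm2* held in the row used under each of the 10 alternatives that tested the gene (other pseudocounts and filters, no trend, 1 row per gene, Welch's test, centring, log-normal SDs and a larger coefficient of variation). All the alternatives that tested *Camk2b*, except the one with no filter, let it in only through its *Dio3-/-* mean. In other rows of *Camk2d*, uc008rgg.1 (log2 fold change 0.341) and uc008rgh.1 (0.340) passed. Centring reversed *Camk2g* to −0.00890 and *Calm2* to −0.0254, since it lowers every log2 fold change by 0.04. For *Pcp4*, a pseudocount of 0.1 gave −0.56. The number of symbols that passed was 336 (280 higher). It was 197 without a filter (168 higher), 187 with each coefficient of variation raised by 0.005 (157 higher), 180 with centring (129 higher, or 71.7% against 83.3%) and 26 with Welch's test (25 higher). The 3 pathway genes became 0 with Welch's test. *Rcan2* was lost without a filter, without the trend, with centring and with the raised coefficient of variation (adjusted *P* from 0.030 to 0.152 over 10 alternatives by limma or Welch's test), and *Pnck* passed as lower without the trend and with log-normal SDs. With all rows of a gene summed, shares in *Dio3+/+* and *Dio3-/-* hearts were 8.47% and 7.23% for *Camk2a*, 0.578% and 0.918% for *Camk2b*, 78.9% and 81.4% for *Camk2d*, and 12.0% and 10.5% for *Camk2g*. The row uc008rgf.1, whose locus was not determined, was counted there as *Camk2g*. The cause of these moves was not tested, except that summing counts shared exons again. No paired analysis was possible because the table used here carries no values of single hearts, and for the same reason leaving out each heart was not run.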

Other observations

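The spread between hearts was smaller in *Dio3-/-* than in *Dio3+/+* hearts for 8 of the 9 members, *Camk2g* being the exception, with median coefficients of variation of 0.06 and 0.12. Over all tested symbols, 65.4% had the smaller coefficient of variation in *Dio3-/-* hearts and 27.3% the larger one. The *Dio3-/-* group is the one in which the age field of the labels differs between hearts.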
